A study of Mus musculus with 4 samples.

Results

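Mitogen-activated protein (MAP) kinase cascades pass signals through tiers of kinases, in which a MAP4K or a small GTPase engages a MAP3K, the MAP3K phosphorylates a MAP2K, and the MAP2K phosphorylates a MAP kinase on a threonine and a tyrosine. The best known branches end in the ERK, JNK, p38 and ERK5 kinases. Dual-specificity phosphatases (Dusp) remove the activating phosphates, and scaffold proteins hold the tiers together. In neurons and neuroblastoma cells these branches are known for roles in differentiation, neurite growth and stress responses. The genes described here are the 73 protein-coding genes of the RefSeq GRCm38.p6 annotation, out of 21900, whose symbol is Mapk, Map2k, Map3k or Map4k followed by a number, or begins with Mapk8ip, Mapkapk or Dusp. The symbols alone decide membership, but the set was picked for description with earlier results of these data known. The name also takes in atypical dual-specificity phosphatases, several of which do not act on MAP kinases.

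MOV10 is an RNA helicase known as a partner of the Argonaute proteins of microRNA silencing. The RNA it binds was mapped with the eCLIP assay in N2A, a neuroblastoma line of the mouse that the labels call a neurocarcinoma line. In eCLIP, protein is crosslinked to RNA by ultraviolet light, the protein is immunoprecipitated with its RNA fragments, and the fragments are sequenced beside an input. The libraries were 2 immunoprecipitates made with an anti-MOV10 antibody and 2 inputs, all from flash-frozen N2A pellets with no genetic change or drug named in the labels, and no label tells if the replicates were separate cultures. The question was which transcripts the immunoprecipitates enriched over the inputs, and where along the transcript.

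The values came from a single list of 12236 peaks that combined all libraries. The name of the list holds IDR, the usual short form of irreproducible discovery rate, a measure of agreement between replicates. How it was applied was not stated, and a gene may lack a peak because its peaks did not pass it. Each peak carried the authors' own pair of values, read here as a log2 fold change, immunoprecipitate over input, and a −log10 p for it. The first of these is called log2 enrichment below. The list names no columns, so this reading rests on the range and order of the values, and the positions do not depend on it. With 1 value per peak, no spread between replicates could be given and no difference below was tested. The lowest log2 enrichment listed was 3.001 and the lowest −log10 p was 3.005, so a gene without a peak is not thereby shown to be unbound. The reads behind a peak, the depth of the libraries and the abundance of each transcript in the input were not known. A peak was counted for a gene when its midpoint lay in the span of that gene and of no other.

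MOV10 peaks were listed in 16 of the 73 cascade genes (21.9%), against 7.70% of all 21900 protein-coding genes. These 16 genes, on 10 chromosomes, held 71 peaks. The share in the cascade genes was thus above that of all coding genes, but transcript abundance differs between genes, and its part in this difference was not tested. With a log2 enrichment of at least 4 required, 9 cascade genes (12.3%) had a peak, against 3.27% of all coding genes. Peaks reached most tiers of the cascade. They were found in 3 of 10 conventional MAP kinase genes, 2 of 7 MAP2K genes, 2 of 18 MAP3K genes, 2 of 5 MAP4K genes, 1 of 3 JNK scaffold genes, 1 of 3 genes of MAPK-activated kinases, 3 of 10 MAP kinase phosphatase genes and 2 of 14 genes of atypical dual-specificity phosphatases. Of the atypical MAP kinase genes, the symbols of the set take in only Mapk4, Mapk6 and Mapk15, and none of these 3 had a peak.

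**Figure D1:**
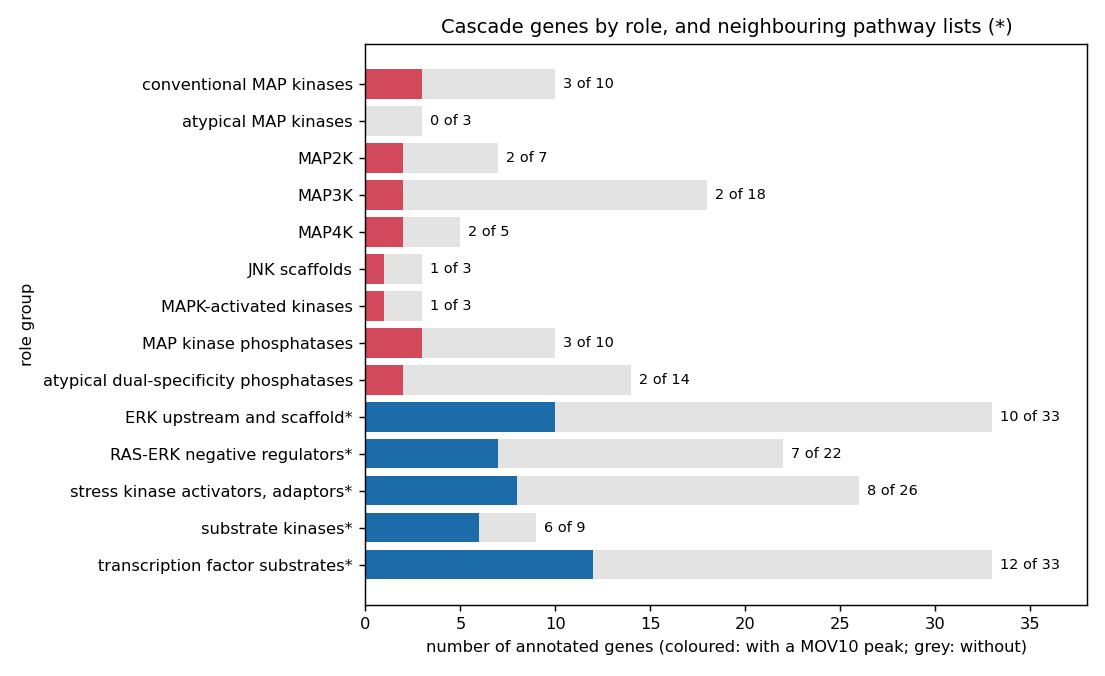
Number of annotated genes per role group (horizontal axis), with the coloured part of each bar showing genes with a MOV10 peak and the grey part those without. The upper 9 bars are the cascade genes and the lower 5 bars, marked with an asterisk, are lists of neighbouring pathway genes. MAP3K genes had peaks in 2 of 18, and kinases phosphorylated by MAP kinases in 6 of 9. Of all protein-coding genes 7.70% had a peak, and the groups and lists were chosen with earlier results of these data known.

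As a set, the cascade genes carried peaks of ordinary strength. The median strongest log2 enrichment per gene was 4.06 in the 16 cascade genes (interquartile range 3.72 to 4.45), against 3.85 in the 1670 other coding genes with a peak (3.42 to 4.39). The strongest peak lay above that median of the other genes in 11 cascade genes and below it in 5. Among peaks of 4 or more the order was the reverse, at 4.43 in the cascade genes and 4.51 in the other genes. Over single peaks it was also reversed, with a median log2 enrichment of 3.64 in cascade genes and 3.71 in the other genes. The cascade genes held a median of 2.5 peaks each, against 3 in the other genes. Their peaks were less significant by the authors' own measure. The median −log10 p was 7.76 in the cascade genes and 10.3 in the other genes, and 2 of 71 cascade peaks (2.82%) reached 20, against 20.5% of the peaks of the other genes. The highest −log10 p of a cascade gene was 20.2, whereas the list stops at 400, a value shared by 77 peaks of the other genes.

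**Figure D2:**
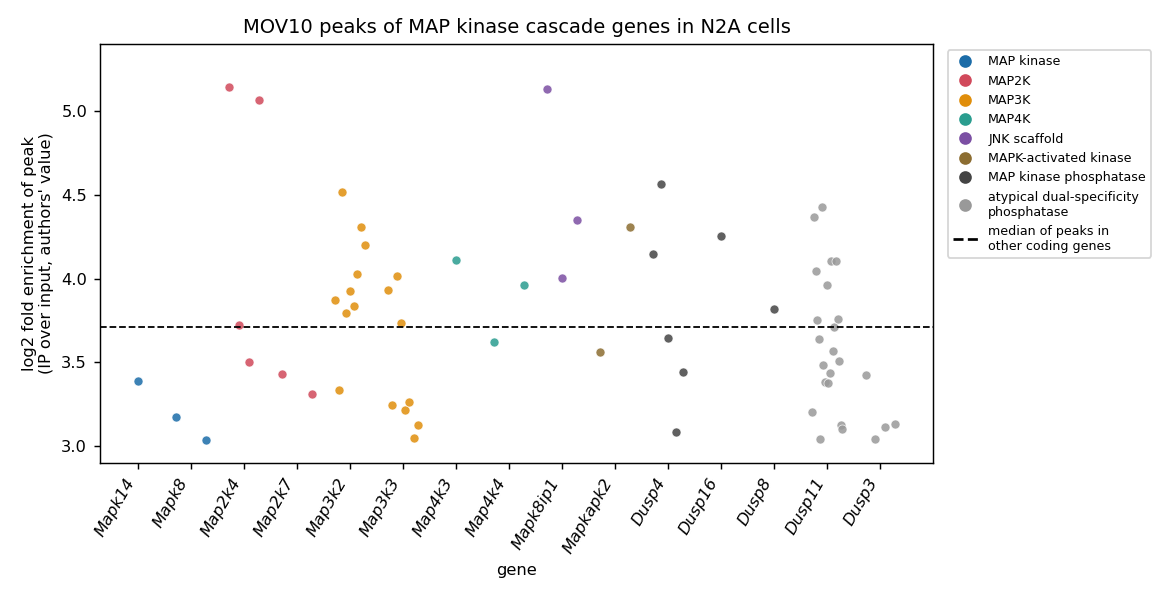
Log2 enrichment, immunoprecipitate over input (vertical axis) of each of 65 peaks in 15 cascade genes, by gene (horizontal axis) and coloured by role in the cascade. The dashed line at 3.71 is the median of the peaks in other coding genes. Peaks above 5 occur in Map2k4 and Mapk8ip1 alone, while those of Mapk14, Mapk8, Map2k7 and Dusp3 all lie below the line.

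The stress-activated MAP kinase genes with peaks were Mapk14 and Mapk8, both with a strongest peak below the 3.85 median of the other coding genes. Mapk14, which encodes the stress kinase p38α, had a single broad peak of 289 nt at 28747779 to 28748067 on chromosome 17. It lay 482 nt from the 3′ end, with a log2 enrichment of 3.39 and a −log10 p of 12.0, and ranked 198th of the 484 genes with exactly 1 peak, whose median was 3.31. Mapk8, the gene of the stress kinase JNK1, had 2 peaks at 3.18 and 3.04. The stronger lay at 33381104 to 33381387 on chromosome 14, 3347 nt from the 3′ end. Its strongest value was the lowest of the 16 genes and ranked 1514th among the 1686 coding genes with a peak. The JNK genes Mapk9 and Mapk10 and the p38 genes Mapk11, Mapk12 and Mapk13 had no peak.

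Among the 7 MAP2K genes, peaks were listed in Map2k4 and Map2k7. Map2k4 encodes MKK4, which phosphorylates JNK and p38, and had the strongest peak of all cascade genes. Its 4 peaks had log2 enrichments of 5.14, 3.73, 3.50 and 5.07 from the 3′ end inward, with −log10 p of 7.95, 8.48, 6.12 and 5.66. The strong peaks were thus the outer ones, and the inner ones were close to the median of the list. The strongest lay at 65688813 to 65688876 on the minus strand of chromosome 11, 600 nt from the end of the gene, a 35.4-fold linear enrichment. Map2k7 encodes MKK7, which phosphorylates JNK, and had peaks at 3.43 and 3.31, the stronger at 4247353 to 4247488 on chromosome 8. Map2k1 and Map2k2, the genes of the ERK activators MEK1 and MEK2, had no peak, and neither had Map2k3 and Map2k6 of the p38 branch or Map2k5 of the ERK5 branch.

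The JNK scaffold gene Mapk8ip1 stood close to Map2k4 in strength. It encodes JIP1, which binds a MAP3K, MKK7 and JNK together and also links cargo to kinesin. Its 3 peaks had log2 enrichments of 5.13, 4.00 and 4.35 and −log10 p of 9.29, 9.50 and 9.71. All were centred within 358 nt of the 3′ end of the gene, in a stretch of 289 nt on the minus strand of chromosome 2, with the strongest at 92383766 to 92383871. Among the 156 coding genes with exactly 3 peaks, this strongest value ranked 1st, ahead of 4.83 for the next gene, and that of Map2k4 ranked 2nd among the 118 genes with exactly 4. Among all 1686 coding genes with a peak, the strongest values of Mapk8ip1 and Map2k4 ranked 120th and 117th. The −log10 p of these strongest peaks, 9.29 and 7.95, lay below the median of 10.3 over peaks of the other coding genes. The ranks among genes with the same number of peaks were looked up after the values had been seen. Mapk8ip2 and Mapk8ip3, the other JIP genes, had no peak in their spans.

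**Figure D3:**
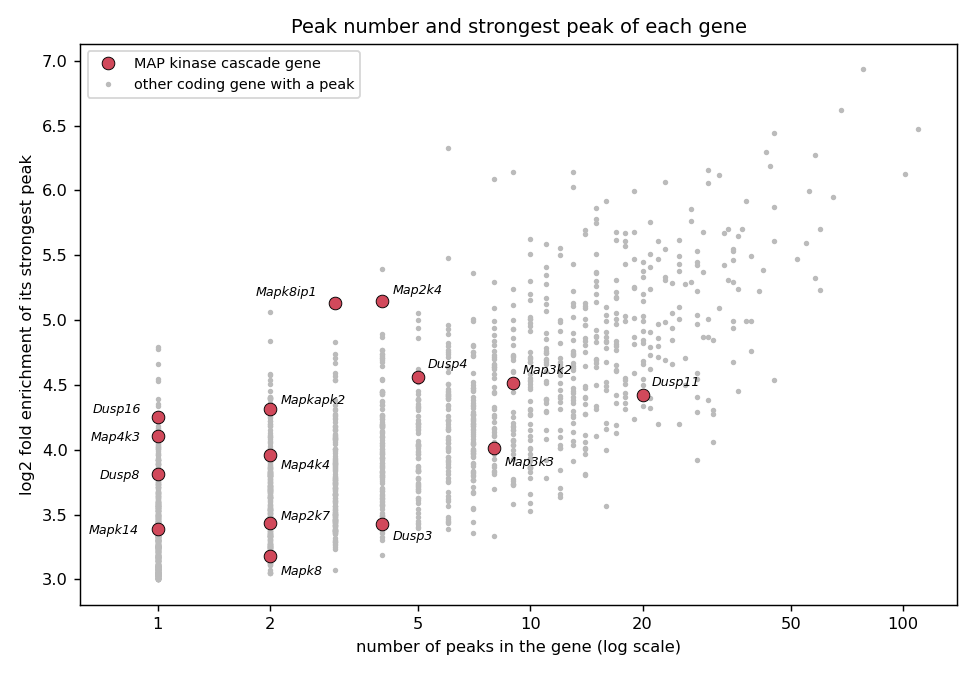
Number of peaks per gene (horizontal axis, log scale) against the log2 enrichment of the strongest peak of that gene (vertical axis), for 15 cascade genes (red, named) and the 1670 other coding genes with a peak (grey). Mapk8ip1 with 3 peaks and Map2k4 with 4 lie at the upper edge of their columns, and Dusp11 with 20 lies near the lower edge of its own.

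Map2k4 and Mapk8ip1 also host microRNA genes, whose mature sequences are shown because the peaks of these 2 genes were the strongest of the cascade and MOV10 is known as a partner of Argonaute. The sequences are from RefSeq (GRCm38.p6), 5′ to 3′, with the seed (bases 2 to 8) in capitals.
mmu-miR-744-5p, in Map2k4: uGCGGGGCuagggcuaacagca
mmu-miR-744-3p, in Map2k4: cUGUUGCCacuaaccucaaccu
mmu-miR-7000-5p, in Mapk8ip1: aGGGGACAgguaucuggacaga
mmu-miR-7000-3p, in Mapk8ip1: cACCCACCugccuguccuccag
The 4 seeds differ. The peaks did not lie on the hairpins. The Mir744 hairpin, at 65734733 to 65734832 on chromosome 11, was 45175 nt from the nearest peak of Map2k4, and the Mir7000 hairpin, at 92387384 to 92387446 on chromosome 2, was 3330 nt from the nearest peak of Mapk8ip1. The other hairpin within a cascade gene, Mir6989, lies in Map4k2, which had no peak. The sequences under the peaks themselves were not analysed here.

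At the MAP3K tier, 17 peaks were listed in 2 of 18 genes, where 7.70% of all coding genes had a peak. The 2 genes were the close relatives Map3k2 and Map3k3. They encode MEKK2 and MEKK3, which activate MEK5 and through it ERK5, and other branches as well. Map3k2 held 9 peaks, with log2 enrichments from 3.34 to 4.51 and −log10 p from 3.96 to 15.2. Its strongest peak, at 32234110 to 32234169 on the plus strand of chromosome 18, had a −log10 p of only 4.49, while the most significant peak had a log2 enrichment of 4.31. Map3k2 was the only gene of the 16 with peaks more than 5 kb from its 3′ end. These 2 touching peaks lay at 6170 and 6249 nt, separated by 2152 nt from the other 7 peaks. Map3k3 held 8 peaks in a denser group, 1302 to 2484 nt from the 3′ end on the plus strand of chromosome 11. Their log2 enrichments ran from 3.05 to 4.01, the strongest at 106154977 to 106155034. Its most significant peak, with a −log10 p of 20.2, had a log2 enrichment of 3.93. In Map3k12, the gene of the axon injury kinase DLK, the only peaks lay where its span overlaps another gene, and they were not counted. It and the other MAP3K genes, 16 in all, had no peak assigned, among them Map3k1 (MEKK1), Map3k5 (ASK1, which responds to oxidative stress) and Map3k7 (TAK1, which responds to cytokines).

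The MAP4K genes with peaks were Map4k3 and Map4k4, whose products lie upstream of JNK signalling. Map4k3 had 1 peak at 80581141 to 80581305 on chromosome 17, with a log2 enrichment of 4.11 and a −log10 p of 6.78. Map4k4 had 2 touching peaks at 3.62 and 3.96, the stronger at 40025849 to 40025993 on chromosome 1 with a −log10 p of 16.3. All 3 peaks lay within 710 nt of the 3′ end, in genes that span 148294 and 125409 nt. Downstream of p38, Mapkapk2 encodes MK2, a kinase that controls the stability of mRNAs with AU-rich elements. It had peaks at 3.56 and 4.31, the stronger at 131054667 to 131054747 on chromosome 1, 1007 nt from the 3′ end. Mapkapk3 and Mapkapk5 had no peak.

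Of the MAP kinase phosphatases, Dusp4 was the most strongly marked. Dusp4 encodes a nuclear phosphatase that is itself induced by ERK signalling. Its 5 peaks had log2 enrichments of 4.15, 4.56, 3.64, 3.08 and 3.45 from the 3′ end inward, with −log10 p from 6.86 to 18.0. Their midpoints lay within 765 nt of the end of the gene on the plus strand of chromosome 8, with the strongest (34819688 to 34819821) centred 140 nt from it. Dusp16 and Dusp8, whose products act mainly on JNK and p38, had 1 peak each. That of Dusp16, at 134716135 to 134716255 on chromosome 6, had a log2 enrichment of 4.25 but a −log10 p of only 3.93. That of Dusp8, at 142079883 to 142080103 on chromosome 7, had a log2 enrichment of 3.82 and a −log10 p of 8.17. No peak was listed in Dusp1, Dusp2 and Dusp5, which with Dusp4 form the inducible nuclear group, or in the cytoplasmic ERK phosphatase genes Dusp6, Dusp7 and Dusp9, or in Dusp10.

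Dusp11 held more peaks than any other cascade gene. Its product is an atypical family member that removes phosphates from the 5′ end of RNA rather than from MAP kinases. The gene had 20 peaks, 28.2% of all cascade peaks, and more peaks than 92.8% of the 1686 coding genes with a peak. Their distances from the 3′ end ran from 270 to 4942 nt, on the minus strand of chromosome 6, and formed 15 intervals when touching peaks were joined. Log2 enrichments ran from 3.04 to 4.43 with a median of 3.60, and 5 peaks reached 4. The strongest was at 85944527 to 85944557 and the most significant, with a −log10 p of 20.2, had a log2 enrichment of 4.10. For its number of peaks the gene was weakly enriched, since its strongest value ranked 15th of the 16 coding genes with exactly 20 peaks, whose median was 4.88. Dusp3, which encodes the small phosphatase VHR, had 4 separate peaks at 3.43, 3.04, 3.12 and 3.13, spread over 1675 nt. The strongest lay at 101971267 to 101971381 on chromosome 11, 183 nt from the end. Among genes with the same number of peaks, the strongest values of Dusp3 and Mapk8 also ranked low, 109th of 118 and 234th of 250. By the same measure Dusp4 ranked 6th of 77 and Dusp16 12th of 484. Dusp11, Map3k2 and Map3k3 together held 37 of the 71 peaks (52.1%). Without Dusp11 the median log2 enrichment of the remaining 51 cascade peaks was 3.64, as with it.

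The peaks of the cascade genes had a common position at the 3′ end. Among the 14 of these genes that span 15 kb or more, 62 of 64 peaks (96.9%) were centred no farther than 5 kb from the annotated 3′ end, against 86.3% in the other coding genes of that length. The exact 95% binomial interval of the cascade share was 89.2 to 99.6, but peaks of a gene are not independent and the interval covers counting alone. Among peaks of 4 or more the shares were closer, at 88.9% in the cascade genes and 86.2% in the other genes. Within 2 kb the shares were 56.2% and 58.9%. None of the 64 was centred within 5 kb of the 5′ end, against 0.293% in the other genes. In 11 of the 16 genes every peak was less than 2 kb from the 3′ end. Among the exceptions were Map3k2, Map3k3, Mapk8 and Dusp11, and in Mapk8 no peak lay within 2 kb. In the 12 genes with more than 1 peak, the strongest peak was the one nearest to the 3′ end in 6, and it was the most significant one in 4. Whether a peak lies in an exon, an intron or an untranslated region was not determined.

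**Figure D4:**
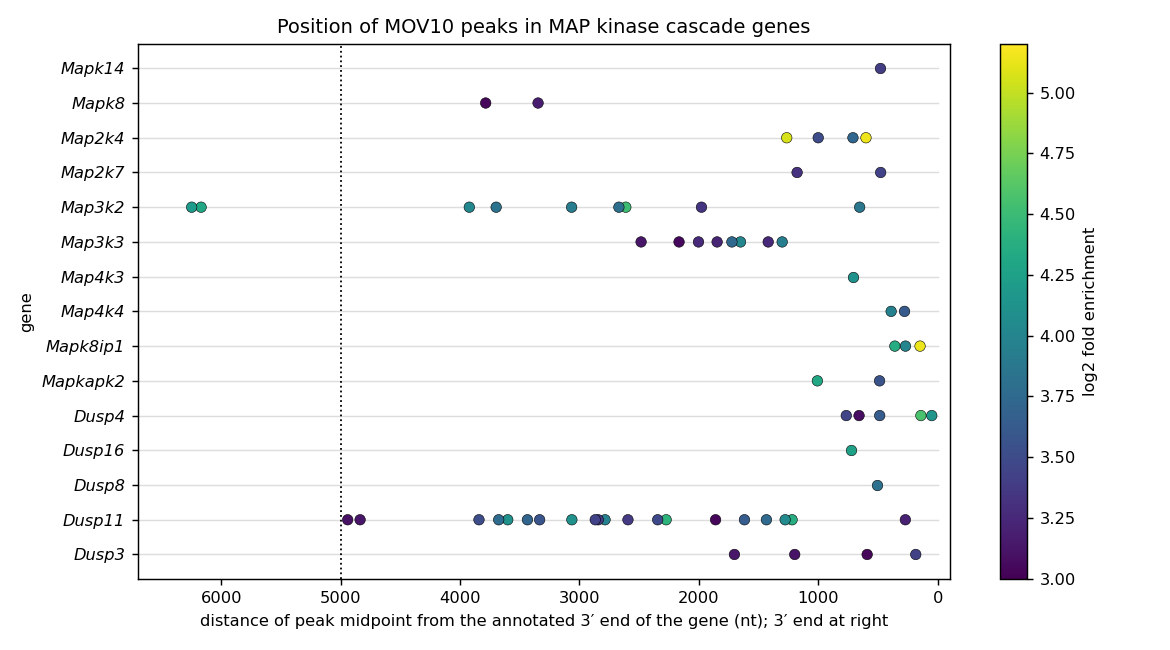
Distance of each of 65 peak midpoints in 15 cascade genes from the annotated 3′ end of the gene (horizontal axis, in nt, with the 3′ end at the right), by gene (vertical axis) and coloured by log2 enrichment. The dotted line marks 5000 nt, and the only peaks beyond it are those of Map3k2 at 6170 and 6249 nt. The peaks of Dusp11 are spread from 270 to 4942 nt and those of Mapk8ip1 are centred within 358 nt.

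All 71 peaks lay on a single strand per gene. For 11 of the 16 genes the strand could be looked up in a RefSeq promoter table, and all 46 of their peaks were on the strand of the gene. For the other 5, among them Map4k4, Mapk8ip1, Dusp4 and Map3k2, the strand was taken from the peaks. The cascade peaks had a median width of 89 nt, against 73 nt in the other genes, and ranged from 6 to 289 nt. They covered 6977 nt in all.

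Genes that act beside the cascade were also marked. Over 5 lists of such genes, 43 of 123 (35.0%) had a peak, with 315 peaks in all, against the 7.70% of all coding genes. The lists were also written with earlier results of these data known, and the part of transcript abundance in this difference was not tested either, so nothing particular to the pathway follows from it. Upstream in the ERK branch, 10 of 33 genes had peaks. Ptpn11, the gene of the phosphatase SHP2, led with 4.69 and 20 peaks, followed by the scaffold gene Iqgap1 (4.50, 9 peaks), the RAF kinase gene Braf (4.39, 30 peaks) and the RAF activator gene Shoc2 (4.18, 4 peaks). The RAS gene Nras reached 3.99 with 8 peaks, and the adaptor genes Frs2, Gab2, Grb2 and Shc1 reached 3.40 to 3.52. The median strongest log2 enrichment of these 10 genes was 4.07.

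Negative regulators of RAS and ERK outside the Dusp family had peaks in 7 of 22 genes, with a median strongest log2 enrichment of 3.80. The ubiquitin ligase gene Cbl reached 5.51 with 10 peaks, all 6590 to 7913 nt from the 3′ end. Rasal2, a RAS GTPase-activating protein gene, reached 4.87 with 15 peaks and Spred2, an inhibitor of RAF activation, 4.83 with 16. Nf1, the neurofibromin gene, had 4 peaks up to 3.80, and Pebp1, Spred1 and Spred3 had 1 peak each. Activators and adaptors of the stress kinases had peaks in 8 of 26 genes, with a median of 4.16. Taok1, a kinase of the MAP3K tier outside the Map3k symbols, held 45 peaks up to 4.54, more than any of the 73 cascade genes. The arrestin gene Arrb1 reached 4.62, the JNK scaffold gene Spag9 4.26, and the GTPase genes Rac1 and Cdc42 4.19 and 4.13. Sh3rf1, Tnik and Tab2 reached 3.57, 3.45 and 3.30.

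Kinases that MAP kinases phosphorylate had peaks in 6 of 9 genes, with a median of 3.97. Rps6ka3, the gene of the ERK-activated ribosomal S6 kinase RSK2, reached 4.97 with 17 peaks. Mknk2, whose product phosphorylates the cap-binding protein eIF4E, reached 4.90 with 11 peaks and a −log10 p of 39.5. Rps6ka2 reached 4.20, and Rps6ka6, Rps6ka4 and Nlk lay between 3.44 and 3.74. Transcription factors and immediate early genes had peaks in 12 of 33, with a median of 3.86. Mef2d, a target of p38 and ERK5, reached 4.83 with 16 peaks. Creb1 reached 4.35, Foxo3 4.23, Fosl2 4.13 and Srf 4.06. Ets1, Etv1, Max, Etv4, Atf7, Mef2a and Elk4 lay between 3.09 and 3.94. The immediate early genes Fos, Jun and Egr1 had no peak.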

How the data were processed

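Per the labels' protocols, eCLIP was done on N2A cells after the published method, giving 2 immunoprecipitate and 2 input libraries. Per the submitters' processing notes, the genome builds were mm10 and GRCm38.p6. Aligner, peak caller and thresholds were not given in the sources used here. Both values came in 1 deposited list without a header. They were read, from their range and the usual column order, as the authors' −log10 p-value and the authors' log2 fold change of immunoprecipitate over input, as deposited. Starts were converted to count from 1. Genes and spans came from RefSeq GRCm38.p6, strands from its promoter table (99.9% of 8775 peaks on the strand of the gene), or else from the peaks. Of the cascade genes, 57 of 73 were matched in that table. Distances run from the peak midpoint to the end of the gene span. The steps were checked on simulated peaks with Python 3.11.15, pandas 2.3.3 and scipy 1.17.1. The genes, role groups and pathway lists were chosen with earlier results of these data known. Genes with a peak in a role group or list are named, except 1 cascade gene and 1 pathway gene that are counted but not reported here. Alternatives covered thresholds, assignment, merging, window and membership. No test was run, since each peak has 1 value over all libraries.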

Additional observations from a re-analysis of the deposited data

How the results depend on the processing

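No paired analysis was possible because the list holds 1 value per peak over all libraries, and for the same reason no replicate could be left out. At a log2 enrichment of 4 or more, there were 9 cascade genes and 20 peaks, the median strongest log2 enrichment was 4.43 (4.51 in the other genes, so the order turned) and 88.9% of peaks in genes of 15 kb or more were within 5 kb of the 3′ end (86.2% in the other genes). With a −log10 p of at least 5 the median was 4.01 (3.97 in the other genes). The strongest value was then the same in 14 genes, fell to 4.31 in Map3k2, and Dusp16 had no peak. The median was also 4.01 when peaks in overlapping spans were counted, with or without regard to strand (the strand setting was added after the data were seen), and without the Dusp genes, where 40 peaks were left. It was 4.11 with symbols that carry letters after the number. Merging touching peaks left 55 intervals. A window of 2 kb held 56.2% of peaks. The other settings moved the number of genes to between 11 and 17. The depth behind each peak was not known.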

Other observations

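Some peaks lay at cascade genes without counting for them. Map3k12 shares part of its span with Pcbp2, which encodes a poly(C)-binding protein and runs the other way. Of 3 peaks in the shared stretch, those at 102499050 to 102499127 and 102499337 to 102499454 on chromosome 15 were on the strand of Pcbp2, with log2 enrichments of 3.37 and 3.43. The third, at 102499631 to 102499732, was on the strand of Map3k12, 2034 nt from its 3′ end. It had a log2 enrichment of 3.16 and a −log10 p of 3.02, close to the lowest values of the list.

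Past the annotated 3′ end of Mapk8ip2, a JNK scaffold gene, 1 peak lay in no gene span. It was 1306 nt beyond the end on the strand of the gene, with a log2 enrichment of 3.76. Another lay 1175 nt beyond the higher coordinate of Dusp19, an atypical phosphatase gene whose strand was not looked up, with a log2 enrichment of 3.96. Whether these peaks belong to longer forms of these transcripts was not tested. Under a wider reading of the symbols, Mapk1ip1l was the only added gene with peaks, out of Map3k7cl, Mapk1ip1 and Mapk1ip1l. It had 8 peaks with log2 enrichments from 3.24 to 4.26, at 294 to 3142 nt from its 3′ end on chromosome 14.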
